A study of Mus musculus with 6 samples.

Results

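Snora33 is an H/ACA box small nucleolar RNA (snoRNA) that lies inside the ribosomal protein gene Rps12, and a near-identical copy named SNORA33 is annotated on chromosome 12. Every read pair in which either end was named for Snora33 (deposited name ENSMUSG00000070063_Snora33) or for the copy (ENSMUSG00000065004_SNORA33) was taken from the 4 libraries of cultured mouse cells, which gave 59567 of 8319389 lines. These were 2 of the 26158 RNA names found in those libraries, and 618 other names were H/ACA snoRNAs. The RNA was picked because it stood among the RNAs with the most called partners when every line of the merged ES libraries was counted, so its partner numbers in ES cells are given as a description only.

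The read pairs came from MARIO, an assay in which RNAs held by a common protein are joined through a biotinylated RNA linker, so that each chimeric molecule reads RNA1, linker, RNA2. ES-1 and ES-2 were both made from embryonic stem (ES) cells of strain 129/Ola crosslinked with ultraviolet light at 254 nm and treated with RNase I to about 1000 nt by the labels (the study's methods give ES-1 a range that reaches longer fragments), and rRNA was removed by duplex-specific nuclease from ES-1 but with the GeneRead kit from ES-2. ES indirect was a single library of 129/Ola ES cells fixed with formaldehyde and EGS, sheared by sonication to about 1000 nt and freed of rRNA by the same nuclease. MEF was a single library of C57Bl/6 embryonic fibroblasts, crosslinked at 254 nm, cut to about 300 nt and treated with the GeneRead kit. Lists of 4 values without library names follow the order ES-1, ES-2, ES indirect, MEF. The cells carried no labelled genetic change, and cell type, crosslinking, fragment size, depletion and flow cell differ together between some of these libraries and cannot be told apart. The 2 brain libraries held 0 lines of either name among 2160261, which allows a share of up to 0.000139%. They were searched for these names only. Whether snoRNAs are named in them at all was not examined, and the bound rests on that.

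H/ACA snoRNAs fold into a pair of hairpins joined by a hinge that carries the H box, and end with an ACA box close to the 3′ end. They are cut from introns of host genes and assemble with the proteins dyskerin, GAR1, NHP2 and NOP10 into particles that turn chosen uridines of rRNA into pseudouridine. Rps12, the host of Snora33, encodes a protein of the small ribosomal subunit and also carries the C/D box snoRNAs Snord100 and SNORD101 in other introns.

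In the mm9 genome Snora33 lay at chr10:23505153-23505281 on the minus strand, in the intron between exon 5 and exon 6 of the 6 exons of Rps12, 100 nt after exon 5 and 73 nt before exon 6. The copy lay at chr12:44844024-44844152 on the plus strand, where no other gene was annotated. Both were 129 nt long and differed at 11 bases, an identity of 91.5%. The RNA is shown because the ligation positions below refer to it, with the H box (a match of ANANNA at positions 61 to 66, left unpaired by RNAfold) and the ACA box (positions 124 to 126) in capitals, and the copy is shown with the bases that differ from Snora33 in capitals.

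Snora33: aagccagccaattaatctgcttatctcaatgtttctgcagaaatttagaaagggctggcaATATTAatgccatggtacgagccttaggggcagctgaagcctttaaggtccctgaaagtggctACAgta
SNORA33 copy: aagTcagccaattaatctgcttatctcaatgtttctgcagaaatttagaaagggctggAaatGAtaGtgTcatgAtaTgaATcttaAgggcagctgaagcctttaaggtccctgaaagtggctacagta

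Of the 11 differences, 10 lay from 3 bases before the H box onwards and 2 lay within it, while positions 5 to 58 and the last 42 bases were identical in both. RNAfold placed the first hairpin between bases 3 and 59 and the next between bases 69 and 122, on either side of the H box.

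Most marker genes went with the cell type labels. Exonic sense ends of the 10 ES cell markers numbered 867 in ES-1, 372 in ES-2 and 1201 in ES indirect with all 10 genes seen, against 8 ends and 5 genes in MEF, where Pou5f1 and Nanog, the pluripotency factors, were at 0. Fibroblast markers had 459 of the 22823 exonic sense ends in MEF, against 617 of 159705 (ES-1), 244 of 104043 (ES-2) and 327 of 215480 (ES indirect). Col1a1, a collagen chain, had 178 ends in MEF and 4 to 5 in each ES library, whereas Fn1, the fibronectin gene, had 72 in MEF and supplied 550, 217 and 279 of the ends in ES-1, ES-2 and ES indirect, and Dcn, the decorin gene, was at 0 in MEF. Each library was read on 2 flow cells, the same pair for ES-1 and ES-2 and another pair for ES indirect and MEF.

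After lines with equal coordinates of both fragments were collapsed to 1, there were 31667 distinct Snora33 read pairs in ES-1, 8434 in ES-2, 1498 in MEF and 288 in ES indirect. They made up 1.37% of all distinct read pairs in ES-1 (95% Wilson interval 1.36 to 1.39, which covers counting error only, as do all intervals here), 0.679% in ES-2 (0.665 to 0.694), 0.401% in MEF (0.381 to 0.421) and 0.0174% in ES indirect (0.0155 to 0.0195). Lines that repeated the coordinates of another were 34.9%, 5.48%, 13% and 8.88% of the Snora33 lines. Among the H/ACA snoRNAs named in each library, Snora33 of the Rps12 locus ranked 4 of 502 in ES-1, 3 of 397 in ES-2, 5 of 341 in MEF and 5 of 272 in ES indirect by distinct read pairs. The snoRNA thus kept about the same place among H/ACA snoRNAs in each library while its share of the libraries spanned a wide range, with ES indirect lowest.

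The Snora33 fragments were nearly all of the snoRNA strand and fitted their stated place. Of the Snora33 ends 98.6% (MEF) to 100% (ES indirect) were sense, and 98.0% to 99.7% matched the genome with at most 15% of bases different. The partner fragments fitted less well, with 93.1%, 84.6%, 77.1% and 55.9% matched. Snora33 stood on the RNA1 side of the linker in 84.1% of its ends in ES-1 and 86.3% in ES-2, but in 33.5% in ES indirect and 40.9% in MEF. The other H/ACA snoRNAs shifted the same way, from 76.4% and 70.8% in ES-1 and ES-2 to 45.1% and 44.8% in ES indirect and MEF.

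rRNA was the partner of most Snora33 read pairs in ES-1 and ES-2. It took 65.2% of the distinct read pairs in ES-1 (64.7 to 65.7), 59.5% in ES-2 (58.5 to 60.6), 37.5% in ES indirect (32.1 to 43.2) and 26.7% in MEF (24.5 to 29.0). mRNA names took 8.44% in ES-1 (8.14 to 8.75), 14.3% in ES-2 (13.6 to 15.0), 25.6% in MEF (23.5 to 27.9) and 29.2% in ES indirect (24.2 to 34.7). The rRNA share was therefore higher and the mRNA share lower in the ES-1 and ES-2 libraries than in the other pair, by more than ES-1 and ES-2 differed from each other, although single libraries allow no test and the 2 pairs of libraries were read on different flow cells. With both fragments at their stated place the rRNA shares were 69.2%, 68.7%, 47.5% and 46.3% and the mRNA shares 5.90%, 8.38%, 21.7% and 15.2%, and with fragments of at least 20 nt free of linker MEF had 49.8% rRNA and 13.3% mRNA against 67.3% and 10.1% in ES-2. The order of the library pairs held, while the distance of MEF from ES-1 and ES-2 shrank.

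Snora33 was joined to itself or to its copy in 6.86%, 5.54%, 6.60% and 2.80% of the read pairs. Other snoRNAs took 9.89% in ES-1, 6.08% in ES-2, 9.28% in MEF and 3.82% in ES indirect. The remainder fell on repeats, with 2.89% in ES-1 and 14.9% in MEF at the ends of the range, on unannotated places, with 5.29% in ES-1 and 19.2% in MEF, and on RNAs of other types at under 2.5% in each library.

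**Figure D1:**
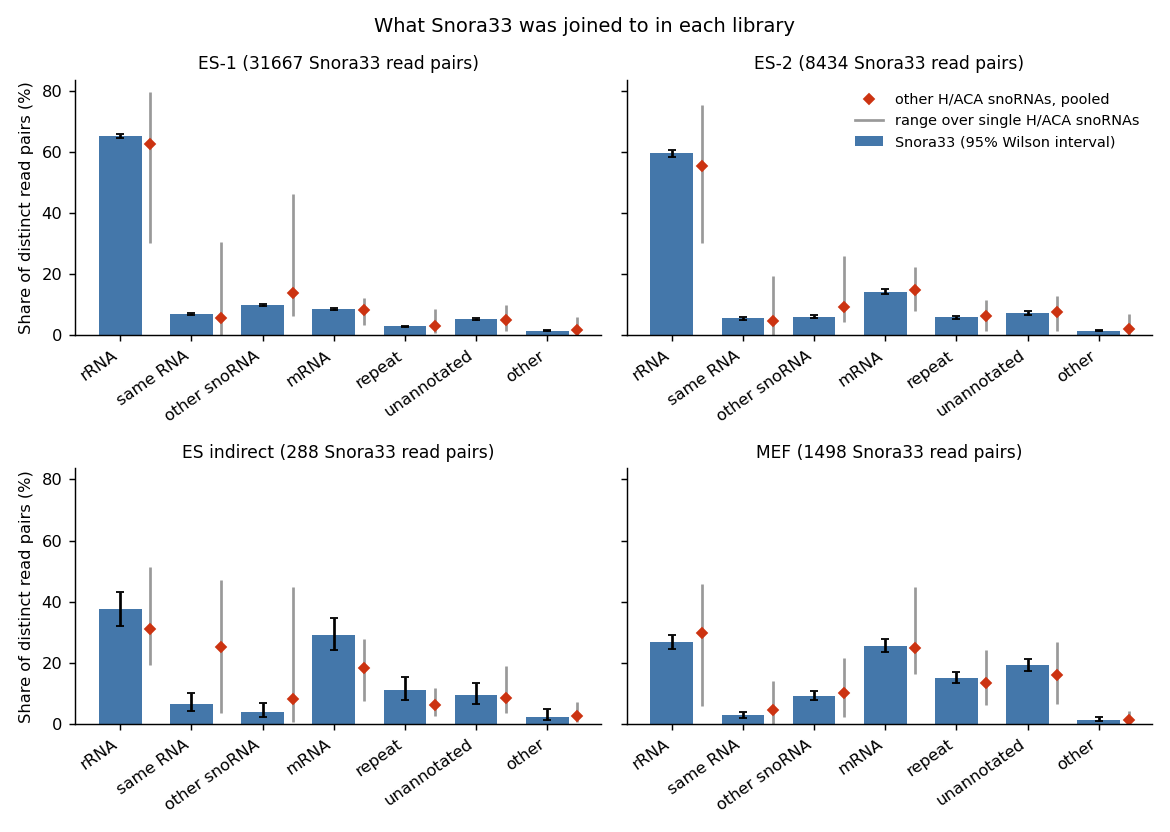
Share of distinct Snora33 read pairs (%) by type of partner in each of the 4 libraries; bars are Snora33 with its 95% Wilson interval, diamonds the pooled ends of the other H/ACA snoRNAs and grey lines the range over single H/ACA snoRNAs with at least 100 ends. The rRNA and mRNA bars lie within 5 percentage points of the diamonds in ES-1, ES-2 and MEF and the other-snoRNA bars below them (9.89% against 13.9% in ES-1), while in ES indirect the same-RNA bar (6.60%) sits far under its diamond (25.1%) and the mRNA bar (29.2%) above its own (18.4%). Diamonds and grey lines count ends, so a pair of a snoRNA with itself counts at both ends, whereas the bars count read pairs. The same-RNA bar includes the copy, whereas for the other snoRNAs only pairs of the same name are in that class.

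The rRNA and mRNA shares in ES-1, ES-2 and MEF were close to those of the other H/ACA snoRNAs. Pooled, they gave 62.5% rRNA and 8.34% mRNA in ES-1, 55.4% rRNA and 14.8% mRNA in ES-2, and 29.9% rRNA and 24.7% mRNA in MEF. By rRNA share Snora33 took rank 55 when set among 164 other H/ACA snoRNAs with at least 100 ends in ES-1 and rank 45 among 118 in ES-2, and by mRNA share ranks 70 and 65. For other snoRNAs as partners it stood near the lower edge in ES-1 (rank 158 among 164) and ES-2 (111 among 118) but not in MEF (47 among 81). For Snora33 this share leaves out pairs with its copy. For the others it leaves out only pairs of the same name, so pairs with their own annotated copies are counted in it. In ES indirect, where 288 read pairs limit the precision, Snora33 had a higher mRNA share than each of 32 other snoRNAs, and 1 of the 32 had a lower share of pairs with itself than its 6.60% (4.26 to 10.1), against a median of 21.6%. These comparisons are not in like units. The other snoRNAs were counted by end, so pairs with themselves counted at both ends, whereas Snora33 was counted by read pair. This raises their share of pairs with themselves and lowers their other shares, most where self pairs are many, as in ES indirect. The place of Snora33 in like units was not computed.

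The shares were alike on both flow cells in ES-2, where rRNA took 59.6% and 59.4%, and differed by under 5 percentage points in ES-1, with 62.96% and 67.3%. In ES indirect they were 32.0% of 125 and 41.7% of 163 read pairs. In MEF 1 flow cell held 1375 read pairs with 29.1% rRNA, and the other held 123 with 0 rRNA pairs, which allows a share of up to 2.44%. The other H/ACA snoRNAs likewise showed 0 rRNA ends among 3623 on that flow cell, and mRNA took 39.8% of the Snora33 read pairs there. Pairs of Snora33 with itself or its copy were 15.4% of the read pairs on that flow cell and 1.67% on the other, and 8.49% and 5.31% on the 2 flow cells of ES-1.

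The base of Snora33 next to the linker was most often its own annotated terminus. On the RNA1 side, where the 3′ end meets the linker, 76.9% of the Snora33 ends lay within 10 nt of the annotated 3′ end in ES-1 (76.3 to 77.4, n = 25633 ends), 93.5% in ES-2 (92.9 to 94.0, n = 7548), 57.3% in ES indirect (47.3 to 66.7, n = 96) and 57.2% in MEF (53.2 to 61.1, n = 596). The exact last base, position 129, alone took 49.2% in ES-1, 64.2% in ES-2, 41.9% in MEF and 21.9% in ES indirect. The mature 3′ end, 3 bases past the ACA box, was thus the most frequent ligation point on this side in each library.

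On the RNA2 side, where the 5′ end meets the linker, the libraries differed more. In ES-1 63.6% of the ends (62.2 to 65.0, n = 4582) and in ES-2 66.4% (63.6 to 69.2, n = 1105) lay within 10 nt of position 1, against 27.9% in ES indirect (22.0 to 34.7, n = 190) and 14.4% in MEF (11.9 to 17.2, n = 674). Position 1 itself took 33.2%, 43.4%, 18.4% and 7.42% in the same order. In MEF position 47 alone held 155 of the 674 ends, over 3 times the 50 at position 1. Pairs of Snora33 with itself or its copy supplied 1562 of the 2916 native RNA2 ends in ES-1 and 355 of the 734 in ES-2. In such pairs 81.1% (ES-1) and 81.2% (ES-2) of the RNA2 ends were native. With rRNA partners the shares were 51.1% and 57.0%, and with mRNA partners 53.7% and 57.4%.

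Ends inside the RNA were spread over many bases, and some of the most frequent bases were the same in several libraries. The 3 most frequent inner bases of each side in ES-1, ES-2 and MEF are shown in capitals, and on the RNA1 side of ES-1 they held 194, 141 and 119 of 5910 inner ends. On the RNA1 side of MEF position 61 was tied with positions 95 and 117, at 6 ends each. Of these position 61 alone is marked.

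Snora33, inner ligated bases: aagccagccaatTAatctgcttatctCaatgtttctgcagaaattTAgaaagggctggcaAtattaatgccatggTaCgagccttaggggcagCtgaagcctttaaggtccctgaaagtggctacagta

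Position 78 was among the 3 most frequent on the RNA1 side in ES-1 with 194 ends, in ES-2 with 33 and in MEF with 16, and position 76 in ES-1 with 141, in ES indirect with 5 and in MEF with 107. Both lie in a stretch of the 3′ hairpin that RNAfold leaves unpaired, and position 27, with 119 RNA1 ends in ES-1, 30 in ES-2 and 4 in ES indirect, lies in the loop of the 5′ hairpin (bases 21 to 36). On the RNA2 side position 14 recurred in all 4 libraries with 194, 40, 15 and 40 ends, and position 47 in ES-1, ES indirect and MEF with 116, 25 and 155. Of the inner RNA1 ends, 58.7% in ES-1, 76.7% in ES-2, 82.7% in MEF and 65.0% in ES indirect fell on bases that RNAfold left unpaired, where 50.5% of the inner bases are unpaired. For the inner RNA2 ends the share was 49.5%, 47.2%, 57.7% and 47.4%, above that of the bases themselves in ES indirect only. Over the 107 inner positions the RNA2 profiles of the ES-1 and ES-2 libraries correlated with a Pearson r of 0.89 (Spearman rho 0.78) and the RNA1 profiles with 0.53 (0.37), over positions of 1 RNA that share its base composition. Against ES-1 the RNA2 profile gave 0.64 (0.62) in ES indirect and 0.56 (0.70) in MEF, and the RNA1 profile 0.53 (0.24) and 0.39 (0.35).

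**Figure D2:**
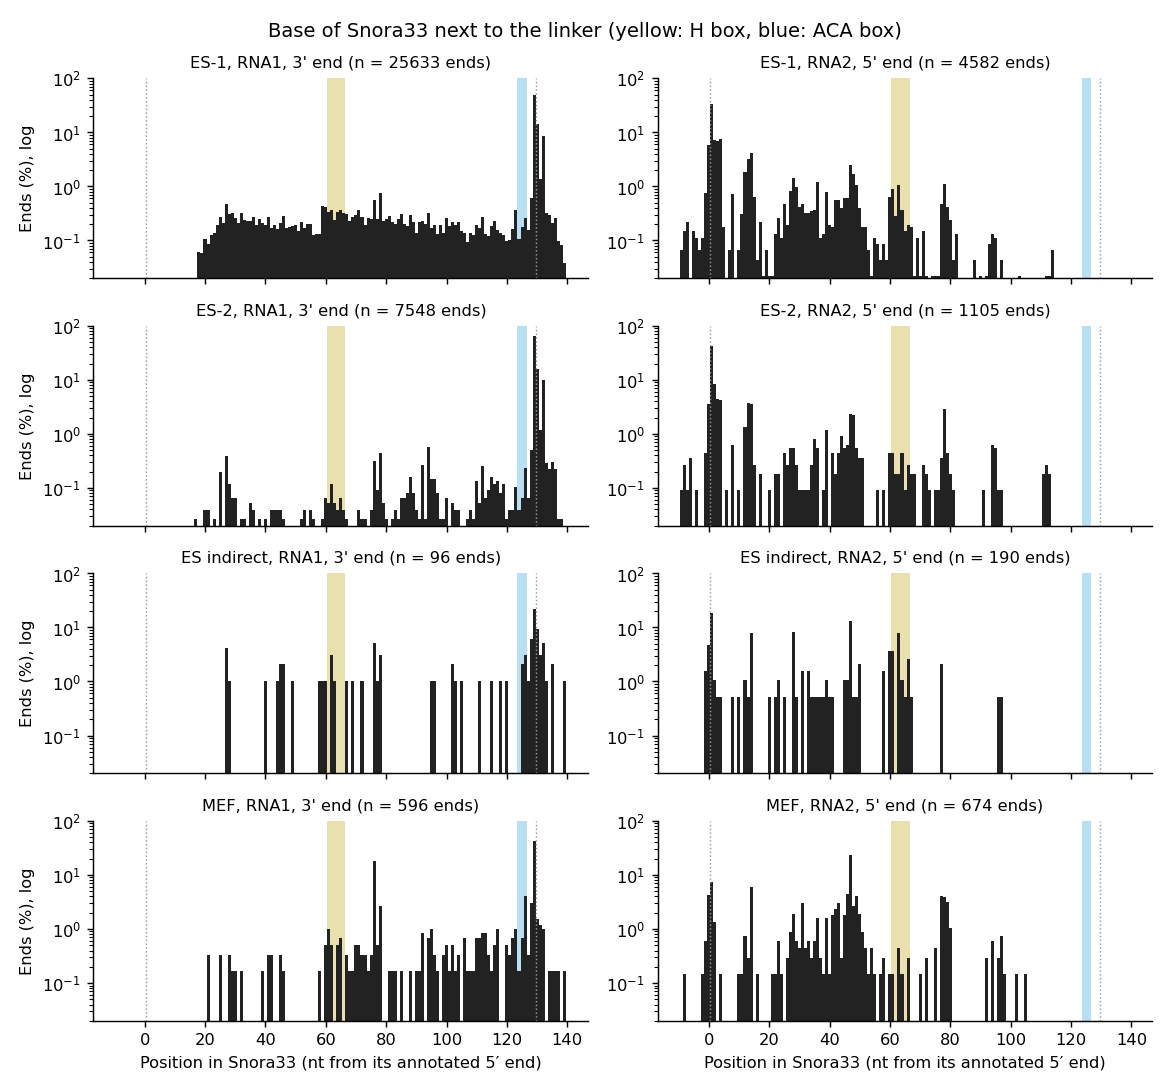
Share of Snora33 ends (%, log axis) by the base next to the linker, counted in nt from the annotated 5′ end, for the RNA1 3′ end (left) and the RNA2 5′ end (right) in each library; dotted lines mark the annotated ends of the RNA. The tallest bar stands at base 129 on the left in each library, and on the right at base 1 in the ES libraries and at base 47 in MEF.

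The use of the native 3′ end was above the median of the H/ACA snoRNAs in each library, and that of the native 5′ end was so in ES-1 and ES-2 only. On the RNA1 side Snora33 ranked 22 of 130 snoRNAs in ES-1 (median 63.2%), 18 of 81 in ES-2 (median 87.4%), 5 of 21 in ES indirect (median 45.6%) and 6 of 70 in MEF (median 26.4%), by the stated coordinates. On the RNA2 side it ranked 28 of 87 and 10 of 48 in ES-1 and ES-2, but 24 of 33 in ES indirect and 68 of 80 in MEF, where its 14.5% lay below the lower quartile of 27.9%. MEF was thus the library in which the 5′ end of Snora33 was least often joined, both by its own share and by its place among the snoRNAs. The Snora33 shares ranked here include its pairs with itself, and its ranks without such pairs were not computed.

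Native 3′ ends were found with rRNA and with mRNA partners. In ES-1 85.0% of the RNA1 ends joined to mRNA names (83.4 to 86.5) and 74.5% of those joined to rRNA (73.8 to 75.1) were native, and in ES-2 the shares were 95.7% and 92.6%. In MEF they were 55.7% (46.2 to 64.7) for mRNA and 162 of 270 ends (54.1 to 65.7) for rRNA, intervals that overlap.

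Most rRNA partners carried 1 of 2 names, less so in ES indirect. The large subunit repeat name LSU-rRNA_Hsa took 70.6%, 72.2%, 62.96% and 84.0% of the Snora33 rRNA read pairs, and the small subunit name SSU-rRNA_Hsa took 28.4%, 26.8%, 8.33% and 13.2%. Rn45s, the rRNA precursor, was named in 25.9% (18.6 to 34.9) of the 108 rRNA pairs of ES indirect and in 0 of the 20644, 5021 and 400 of ES-1, ES-2 and MEF, and 5S rRNA in 6 pairs of ES-1 and none of the others. The other H/ACA snoRNAs gave 34.9% for Rn45s in ES indirect and 0 in the others too. In ES indirect the region chr17:39979936-39985756 held 28 of the 108 rRNA pairs, also 25.9%, and 34.9% for the other H/ACA snoRNAs. The same region held 21.9%, 19.4% and 8.5% of the Snora33 rRNA pairs in ES-1, ES-2 and MEF, with 0 named Rn45s. The shares by name therefore cannot show that the precursor was joined in ES indirect alone. Whether the libraries differ here in naming only was not tested. Snora33 was the RNA1 partner in 94.1%, 94.8%, 48.1% and 69.0% of its rRNA pairs.

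Since rRNA names are repeat copies spread over the genome, their positions were grouped into windows (starts at most 500 bp apart). The 49 windows with at least 50 Snora33 read pairs in ES-1 and at least 20 in ES-2 held 88.5% and 91.0% of the rRNA pairs. The window with most pairs, chr17:39979936-39985756, took 21.9% of the ES-1 and 19.4% of the ES-2 pairs, where the other H/ACA snoRNAs had 22.7% and 18.3%. The ratio of the Snora33 share to the share of the other snoRNAs had medians of 0.982 (ES-1) and 1.05 (ES-2), and in 44 of the 49 windows it stayed within 1.5 times in both libraries. The correlation across these windows was 1.00 in ES-1 and 0.99 in ES-2 (Spearman 0.96 and 0.93, with windows that share the libraries and rRNA sequence). Within them Snora33 thus had shares near those of the other H/ACA snoRNAs. The windows were kept by their Snora33 numbers. Places where Snora33 was rare could therefore not enter, however often the other snoRNAs were placed there.

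A single window exceeded 1.5 times in both. At chr2:102669483-102669636, named for the large subunit, Snora33 placed 2.67% of its rRNA pairs in ES-1 (552 of 20644) and 1.39% in ES-2 (70 of 5021), against 1.29% and 0.748% for the other H/ACA snoRNAs, or 2.07 and 1.86 times as much. It was singled out after its values were seen. By this share Snora33 of the Rps12 locus ranked 2 of 96 snoRNAs with at least 500 rRNA ends in ES-1 and 5 of 46 in ES-2, with SNORA73 first in both libraries. In ES indirect the window held 0 of the 108 pairs and in MEF 3 of 400, too few to compare.

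**Figure D3:**
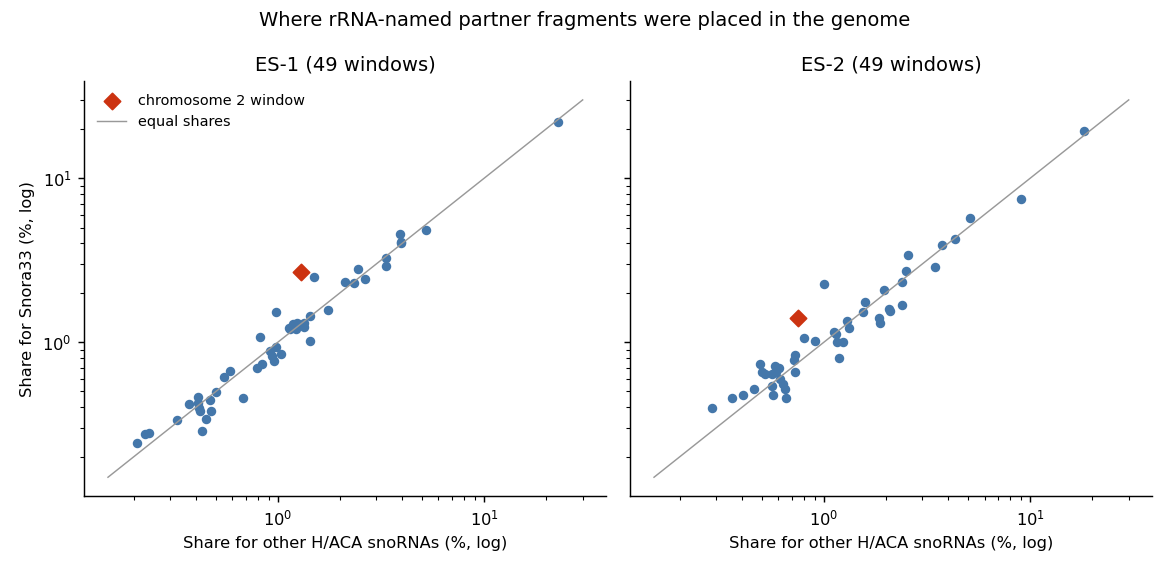
Share of rRNA-named partner fragments (%, log axes) in each of 49 genome windows for Snora33 (vertical) and for the other H/ACA snoRNAs (horizontal) in ES-1 and ES-2, with the line of equal shares. The points follow the line, and the chromosome 2 window (diamond) lies above it in both libraries, at 2.67% against 1.29% and 1.39% against 0.748%. The windows were kept by their numbers of Snora33 read pairs.

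The mRNA names joined to Snora33 numbered 1752 in ES-1 (2673 read pairs), 850 in ES-2 (1205), 249 in MEF (384) and 82 in ES indirect (84). Seen in both ES-1 and ES-2 were 283, which is 16.2% of the ES-1 list and 33.3% of the ES-2 list. Intronic fragments were 52.5%, 54.7%, 77.4% and 86.7% of the mRNA read pairs.

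Many of these fragments carried sequence of other kinds. A fragment was said to hold an rRNA stretch where 15 bases in a row, or their reverse complement, occurred at least 50 times among rRNA-named fragments in both ES-1 and ES-2. This was so for 29.9%, 30.1%, 10.7% and 6.25% of the mRNA fragments. A stretch of 9 linker bases was present in 7.22%, 16.3%, 26.2% and 53.6%, and 20.3%, 36.3%, 27.4% and 28.4% were under 20 nt. At least 1 of the 3 held for 47.2% in ES-1, 63.2% in ES-2, 67.7% in MEF and 45.2% in ES indirect. For the mRNA partners of the other H/ACA snoRNAs it held for 46.3% in ES-1, 65.0% in ES-2, 72.5% in MEF and 44.6% in ES indirect. In ES-1 the rRNA stretch was found in 7.98% of exonic sense, 50.6% of exonic antisense, 29.5% of intronic sense and 58.5% of intronic antisense fragments, and in ES-2 in 16.8%, 45.9%, 29.4% and 41.7%.

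The 20 mRNA names with most read pairs in both libraries were largely of this kind. Of the 20, 11 had an rRNA stretch in most of their fragments, 9 were mostly under 20 nt, 2 mostly held linker and 17 met at least 1 of these, and for 17 most fragments lay at a single site. In 14 most fragments were intronic. The sites of several are shown, 5′ to 3′ as transcribed and cut at 30 bases, with the bases that lie in an rRNA stretch in capitals.

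Dnahc7b, intron, chr1:46132921-46132950, minus strand: CTCTTAAGGTAGCCAAATGCCTCGTCATCT
Trim25, 3′ UTR, chr11:88878858-88878878, plus strand: catgttGACGGTGGCCATGGA
2310067B10Rik, exon, chr11:115650057-115650076, plus strand: actatGCCGTGCCGGTGGTC
Apaf1, intron, chr10:90530388-90530405, minus strand: CGTGCCTACCATGGTGAC
Dcun1d4, 5′ UTR, chr5:73883761-73883779, plus strand: gccgccctgggccgcggtt
Fry, intron, chr5:150921475-150921491, plus strand: ggccgcgccgtcgggtc
Lhx6, intron, chr2:35949551-35949567, plus strand: acttagtagcccatgca
Hsp90ab1, exon, chr17:45705244-45705261, minus strand: ctgctctgctctcctctg

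Dnahc7b, a dynein heavy chain gene, had 180 ES-1 read pairs and 19 from ES-2, of which 198 of 199 lay antisense to the gene and all 199 held an rRNA stretch. Trim25, a ubiquitin ligase gene, had 14 in ES-1, 10 in ES-2 and 0 in ES indirect and MEF, all 24 at 1 site of the 3′ UTR and all with an rRNA stretch. 2310067B10Rik had 12 in each ES library, all 24 with an rRNA stretch, and Apaf1, the apoptosome scaffold gene, had 3 and 13, all 16 with an rRNA stretch and all under 20 nt. These 4 names thus rested on fragments with letters that, as read or as reverse complement, also occur in rRNA-named fragments. Which RNA they came from was not tested.

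Other names high in the list rested on short or linker-bearing fragments. Dcun1d4 had 26 ES-1 read pairs and 22 from ES-2, all 48 at 1 site of the 5′ UTR and 44 of them under 20 nt. Fry had 11 and 20, all at 1 intronic site and 30 of 31 under 20 nt. Lhx6, a LIM homeobox gene, had 8 and 3, and all 11 held linker bases. Hsp90ab1, the gene of a cytosolic HSP90 chaperone, had 5 ES-1 read pairs and 3 from ES-2 over 7 sites, all 8 exonic and sense, with 0 rRNA stretches and 0 linker stretches, and 1 under 20 nt (the fragment shown). Suv420h2, a histone methyltransferase gene, had 8 and 15, all 23 at 1 site of the 5′ UTR and antisense, and Ptpn5, a tyrosine phosphatase gene, had 6 and 3, all 9 at 1 intronic site and antisense, and neither had a fragment with an rRNA stretch, with linker bases or under 20 nt. The other 10 names (Npepps, Slc25a21, Zfp106, Cacna2d3, Pappa, Cntnap5b, Gm20388, Il1rapl1, Atp8b1 and Anks1b) had 3 to 14 read pairs in ES-1 and 3 to 19 in ES-2.

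**Figure D4:**
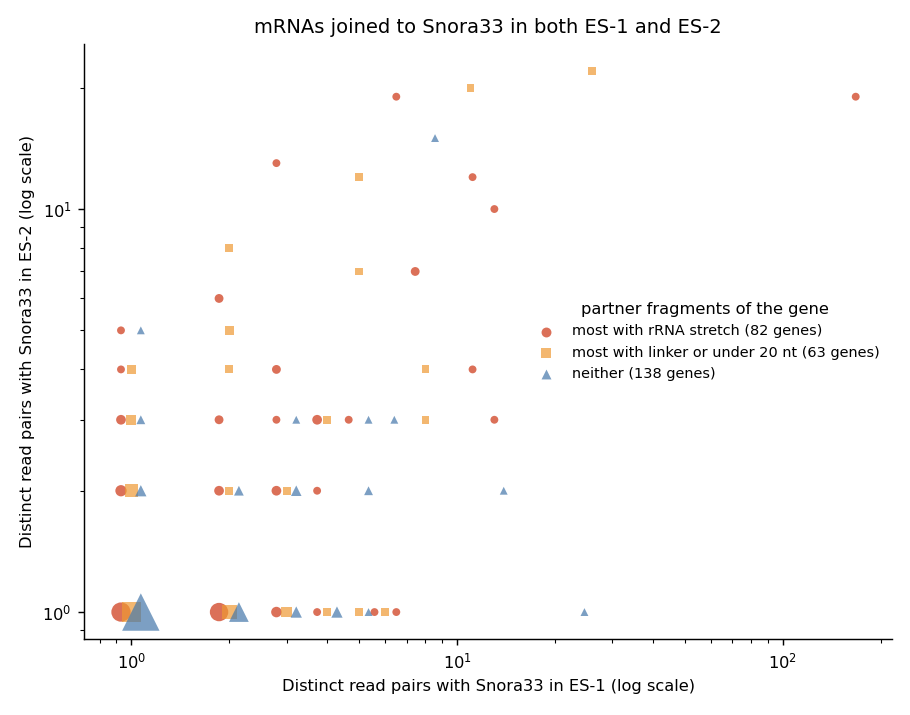
Distinct read pairs with Snora33 in ES-1 and ES-2 (log axes) for the 283 mRNA names seen in both; larger marks stand for more genes, the 3 classes are set slightly apart sideways, and a gene is classed by what most of its partner fragments hold. Genes with mostly rRNA stretches are put in that class first, also where most of their fragments are short or hold linker. Of the 11 genes with at least 5 read pairs in each library, 6 have mostly rRNA stretches. Of the others, 4 have mostly linker or short fragments and 1 (Suv420h2) neither.

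Of the 283 names, 82 (29.0%) had rRNA stretches in most fragments, whatever else these held. Among the rest, 63 (22.3% of the 283) had mostly linker-bearing or short fragments and 138 (48.8%) had neither. Keeping exonic fragments on the strand of the gene left 77 shared names, keeping fragments that fitted their place 129, and applying all the limits together (also at least 20 nt and free of linker and rRNA stretches, a combination chosen after the data were seen) left 44, which is 6.63% of 664 names in ES-1 and 21.7% of 203 in ES-2. The same limits left 12 of 84 mRNA read pairs in ES indirect and 18 of 384 in MEF.

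The 44 names were mostly supported by few read pairs. Hsp90ab1 led with 4 ES-1 read pairs and 3 from ES-2, and Snrpb, the gene of an Sm core protein of spliceosomal particles, had 12 and 2. The Snrpb fragments were all at 1 site of its 3′ UTR, chr2:129998666-129998695 on the minus strand, cttgactgaagctgatgatgcgtctgtgta, whereas those of Hsp90ab1 lay at 6 sites. Chd4, a chromatin remodeller gene, had 3 and 2 read pairs and 1 more in ES indirect, Hnrnpl, the gene of an hnRNP protein, had 3 and 2, and Eef2, the gene of translation elongation factor eEF2, had 5 and 1. The remaining 39 had 1 read pair in ES-2 and 1 to 4 in ES-1. They included ribosomal protein genes (Rplp0, Rpl4, Rps3 and Rps12), linker histone genes (Hist1h1a, Hist1h1c, Hist1h1d) and Pabpc1, the gene of poly(A)-binding protein. Of the 44, Fam129b and Ahctf1 alone were among the called partners described below, where these limits were not applied. Of the 5 Ahctf1 read pairs in ES merged, 3 held an rRNA stretch, and the strict limits kept 1 in ES-1 and 1 in ES-2.

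Few read pairs joined Snora33 to its own host. Rps12 had 2 in ES-1, 1 in ES-2 and 0 in ES indirect and MEF, 2 in exons and 1 in an intron, all sense. Snord100 had 3, 1, 0 and 1 and SNORD101 had 4, 2, 0 and 0 read pairs in the same order of libraries. Among the 7 genes of H/ACA particle proteins and their assembly factors, 5 (Dkc1, Gar1, Nhp2, Nop10 and Nolc1) had no Snora33 read pair in any of the 4 libraries. Naf1, the gene of an assembly factor, had 3 exonic read pairs in ES-1, and Shq1, the gene of a dyskerin chaperone, had 1 in ES-2 in an intron with an rRNA stretch.

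Other snoRNAs outnumbered mRNA names as partners in ES-1 but in none of the other 3 libraries. There were 3132 such read pairs with 295 snoRNAs in ES-1 and 513 with 163 in ES-2, and 148 snoRNAs were seen in both. H/ACA names made up 74.7% and 71.4% of them. Snora81 (ENSMUSG00000087935) had 257, 44, 0 and 6 read pairs, Snora44 had 102, 32, 0 and 3, and SNORA63 (ENSMUSG00000064880) had 70, 17, 0 and 3. Nearly all were sense and 0 held an rRNA stretch.

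The 10 other names with most read pairs in both ES libraries also included 5 repeats. GC_rich, a low-complexity class, had 88 and 74 read pairs, of which 11 held an rRNA stretch. The LINE names L1Md_T (108 and 33) and L1Md_F3 (65 and 32) did so in 139 of 141 and 97 of 97 read pairs, and L1_Mur3 (46 and 16) in 56 of 62. B1_Mur4, a SINE, had 16 and 74 and held linker bases in 88 of 90.

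Called partners were those with more distinct read pairs than the numbers of ends predict, by a one-sided Fisher's exact test per pair of RNAs with Benjamini-Hochberg adjustment over all pairs of the library (adjusted p below 0.05, and 3 or more read pairs). In ES merged 28 of the 3062 non-ribosomal partners of Snora33 were called, or 0.914%, where 0.895% of all 227775 pairs of RNAs were. The counts were 27 of 2396 in ES-1 (background 1.09%) and 8 of 1212 in ES-2 (background 0.719%). In ES indirect 0 of 124 were called (background 2.54%), and with a minimum of 2 read pairs 1 of 124 was (background 5.14%). In MEF 5 of 414 were called, or 1.21% (background 0.842%). The called share lay near the background in ES-1, ES-2 and ES merged, and nothing is read from it there because the RNA was chosen on such counts. With every line counted in place of distinct coordinates, 214 partners were called in ES merged, where 6.34% of all pairs were.

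The other snoRNAs of similar rank gave like numbers in ES merged, with 31 called partners of 4702 for Snora81, 32 of 2306 for a SNORA63 gene (ENSMUSG00000064382) and 38 of 3060 for Snora73b, beside 29 of 2998 for Snora33 of the Rps12 locus alone, its copy included as a partner. Between ES-1 and ES-2 the called lists shared 2 names, SNORD36 and the LTR repeat RLTR13D3, which is 7.41% of the ES-1 list and 25% of the ES-2 list. Over all called pairs of RNAs, 228 were shared, which is 15.4% of those in ES-1 and 29.2% of those in ES-2. None of the ES-1 or ES-2 names was called in MEF, and over all pairs of RNAs 26 of the 1478 called in ES-1 and 25 of the 782 called in ES-2 were.

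SNORD36, a C/D box snoRNA, had 17 read pairs with Snora33 in ES-1 where 6.96 were predicted and 6 in ES-2 where 1.31 were, with 0 rRNA stretches. RLTR13D3 had 4 and 3, of which 6 of 7 were short or linker-bearing. Of the first 20 mRNA names, Trim25, Apaf1 and Lhx6 were called in ES merged. They had 24, 16 and 11 read pairs there, where 14.1, 2.4 and 3.99 were predicted. All Trim25 and Apaf1 fragments held an rRNA stretch and all Lhx6 fragments held linker bases. Naf1 was called in ES-1 (3 read pairs, 0.446 predicted) and B1_Mur4 in ES-2 (74 read pairs, 39.0 predicted). Of the 28 partners called in ES merged, 25 were mRNA names, 10 had an rRNA stretch, or linker bases or a length under 20 nt, in most fragments, and 12 of the others were mostly exonic. Trim33, a ubiquitin ligase gene, led the latter with 6 read pairs where 0.421 were predicted, all from ES-1. Cnot3, a subunit gene of the CCR4-NOT deadenylase, had 4 (0.595 predicted), also all from ES-1. The 5 called in MEF were Btbd9, Snora73b, SNORA48 and, for the copy name, L1_Mur3 and Gata3, and all partner fragments of Btbd9, L1_Mur3 and Gata3 were short or linker-bearing. With the 2 loci merged to 1 RNA, Btbd9 alone of these was called in MEF, beside Gna14 and St18, and with fragments of at least 20 nt free of linker 0 were.

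Read pairs of Snora33 with itself mostly joined 1 native end to the other in ES-1 and ES-2. The Rps12 locus name stood on both sides in 1955, 437, 17 and 40 distinct read pairs. Of all sense pairs within the 2 loci with both ligated bases known, 72.6% in ES-1 (1537 of 2117) and 76.6% in ES-2 (351 of 458) ran from the native 3′ end of RNA1 to the native 5′ end of RNA2, against 5 of 18 in ES indirect and 1 of 23 in MEF. Both fragments shared 10 or more bases of the RNA in 302 of 2172 pairs in ES-1, 10 of 466 in ES-2, 1 of 19 in ES indirect and 6 of 23 in MEF. Joining the ends of 1 molecule gives no shared bases, and how these pairs arose was not tested. In the other pairs RNA2 lay upstream of RNA1 in 1811 against 59 in ES-1 and 446 against 10 in ES-2, whereas in ES indirect it did so in 8 against 10, and in MEF in 15 against 2. In MEF 23 of the 42 pairs were sense at both ends. Whether the pairs without shared bases joined the ends of 1 molecule or of 2 cannot be told apart.

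The copy on chromosome 12 was named in 1235, 128, 9 and 250 ends, which is 3.65%, 1.44%, 2.93% and 16.2% of the Snora33 ends. Its sense fragments seldom fitted it better than Snora33. In ES-1 5 of 1234 had fewer mismatches with the copy, 905 fitted both loci equally and 324 fitted Snora33 better, and in MEF the numbers were 4, 135 and 110 of 249. In ES-2 5 of 127 and in ES indirect 0 of 9 fitted the copy better. Fragments named for Snora33, by contrast, fitted it better than the copy in 92.8% in ES-1, 70.2% in ES-2, 84.3% in MEF and 94.3% in ES indirect. Copy-named fragments were also shorter in the ES libraries, with a median of 35 nt against 65 nt in ES-1, and of nearly equal length in MEF, with 33 nt against 34 nt.

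Read pairs that joined the 2 loci numbered 211, 30, 2 and 1. The copy-named end of these fitted Snora33 better in 153, 17, 1 and 0 pairs and fitted both equally in 56, 11, 1 and 1. Only 2 ES-1 pairs and 2 ES-2 pairs had each end fit its own locus better, so nearly all of the pairs named for the 2 loci cannot be told from pairs of Snora33 with itself. The 4 further annotated SNORA33 copies, which were not counted as members, were named in 1 to 7 ends per library.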

How the data were processed

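MARIO read pairs of 2 ES cell libraries, 1 ES indirect library and 1 MEF library were used, with 2 brain libraries searched for the names only. Per the labels and the study's methods, the authors removed PCR duplicates, split reads at the linker, aligned both fragments to mm9 (TopHat2 2.1.1 and build NCBIM37 are named in the submitters' processing notes) and named each fragment by annotation. The deposited files hold no count, score or intensity column, only coordinates, strands, sequences and names of the 2 fragments of a read pair, with one line for each pair.

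Lines with equal coordinates and strands of both fragments were counted once, since repeats of a line may be copies of 1 molecule. The study collapsed reads that shared both their location and their random barcode, so repeated lines may also be separate molecules. Which of these they are was not tested. The names chose the lines, and the RNAs, partner lists and settings were chosen with earlier results of these data known. RNA1 of 90 nt and RNA2 of 100 nt end with the read and gave no ligation position. Terminal mismatches were trimmed before the ligated base was read, since linker bases were often left on a fragment. Fragments were compared with mm9, with the linker (9 bases in a row) and with 15-base stretches seen at least 50 times in rRNA-named fragments of both ES-1 and ES-2. The reverse complements of these stretches were added, which gave 15708 stretches over both strands. Called partners came from a one-sided Fisher's exact test per observed pair of RNAs with Benjamini-Hochberg adjustment, on read pairs between differently named, non-ribosomal RNAs over 2000 bp apart, and the test was checked on simulated data. Partners named in the text were the first 20 mRNAs and the first 10 other non-ribosomal RNAs ranked by the lower of the ES-1 and ES-2 numbers, the host locus, the H/ACA particle genes and, chosen after their values were seen, SNORD36, RLTR13D3, the partners called in MEF with the loci apart or merged, the called and strictly filtered mRNAs described, and the chromosome 2 window. Distinct read pairs per library numbered 2310134 (ES-1), 1241787 (ES-2), 373978 (MEF) and 1655476 (ES indirect). Wilson intervals are at 95%, and a count of 0 allows up to 3 counts. Whether ES-1 and ES-2 came from separate cultures was not stated in the labels. Gene coordinates are those of GENCODE vM1 on mm9, and structure was predicted with RNAfold 2.7.2. Scripts used Python 3.11.15, pandas 2.3.3, NumPy 2.4.6, SciPy 1.17.1 and pysam 0.24.0. Alternatives were every line counted, stricter matching, length and linker limits, other minimum numbers of read pairs, ribosomal pairs kept, the loci merged, and 1 ES library at a time.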

Additional observations from a re-analysis of the deposited data

How the results depend on the processing

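Of 147 values under alternative settings, 84 stayed within 1.5 times for counts, or for shares, within 1 SD of ES-1 and ES-2 or, for the single libraries, the 95% interval, and 63 moved, and where not stated the cause was not tested. Counting every line gave 48669 ES-1 read pairs, and MEF kept 818 with both fragments at their stated place and 727 with fragments of at least 20 nt free of linker. The rRNA share became 61.1% (ES-1) and 24.4% (MEF) with every line, 69.2%, 68.7%, 47.5% and 46.3% (ES-1, ES-2, ES indirect, MEF) for fragments at their place, and 67.3%, 46.6% and 49.8% (ES-2, ES indirect, MEF) with the length and linker limits. It was 29.9% for the Rps12 locus alone in MEF, and 29.1% (MEF) and 32% (ES indirect) on the first flow cell. The mRNA share became 8.38%, 21.7% and 15.2% (ES-2, ES indirect, MEF) at the stated place and 10.1%, 23.7% and 13.3% with the length and linker limits.

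Called partners numbered 28 in ES merged, 27 (ES-1), 8 (ES-2), 5 (MEF) and 0 (ES indirect) as reported. For ES merged and then the 4 libraries in the order of the report, they were 214, 246, 15 and 7 (MEF stayed within 1.5 times) with every line, 52, 51, 23, 1 and 8 with a minimum of 2 read pairs, and 65, 66, 78, 54 and 70 with no minimum. With every line the first 4 counts are 6.99%, 10.3%, 1.24% and 5.65% of the Snora33 partners. Of all pairs of RNAs 6.34%, 10.5%, 1.27% and 6.81% were called there. Of all pairs of RNAs 2.19%, 2.84%, 1.83%, 5.14% and 2.43% were called with a minimum of 2, and 21.4%, 20.8%, 33.5%, 54.8% and 42.9% with no minimum, where the Snora33 counts are 2.12%, 2.75%, 6.44%, 43.5% and 16.9% of its partners. With ribosomal pairs kept they were 16 (ES merged), 16 (ES-1), 4 (ES-2) and 1 (MEF), where 0.533%, 0.643%, 0.398% and 0.632% of all pairs were called. These counts are 0.512%, 0.651%, 0.324% and 0.235% of the Snora33 partners. With the length and linker limits they were 2 in ES-2 (0.254%, background 0.95%) and 0 in MEF (background 0.606%). With the loci merged 3 were called in MEF (0.725%, background 0.84%). With 1 ES library left out of ES merged the count was 8 (without ES-1) to 27 (without ES-2). The mRNAs seen in both ES libraries fell from 283 to 54 with at least 2 read pairs in each, 77 for exonic sense fragments, 129 at their place, 133 with the length and linker limits, 167 without rRNA stretches and 44 with all of these except the minimum of 2 read pairs, the last 2 settings added after seeing the data, as were the first flow cell alone and the untrimmed coordinates.

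The native share of RNA1 ends in ES indirect was 68.8% with mRNA partners. That of RNA2 ends was 69.4% with every line in ES-1, 53.7% (ES-1), 57.4% (ES-2) and 34.9% (ES indirect) with mRNA partners, and 51.1%, 57.0%, 16.98% and 18.6% with rRNA partners, in the order of the report. Read pairs between the 2 loci were 346 in ES-1 with every line, and 2, 2, 0 and 0 where each fragment fitted its own locus better. The chromosome 2 window kept its shares under both alternatives tried, and untrimmed coordinates moved no native share. No paired analysis was possible because the groups compared share only replicate number 1, with a single library each of ES indirect and MEF. The 288 Snora33 read pairs of ES indirect limit the precision of its shares.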
